A study of Mus musculus with 6 samples.

Results

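The genes described here make cholesterol and fatty acids: 17 enzymes of sterol synthesis, 6 genes that sense or move sterols, and 7 enzymes that make cytosolic acetyl-CoA, acetoacetyl-CoA or fatty acids. They were taken by symbol from a table of 32285 genes, and all 30 were found and passed the filter on low counts, which left 14814 genes for the test. The cells were GS cells, germline stem cell cultures grown from mouse testis, in which Cdkn1c, which encodes the cell cycle inhibitor p57, is flanked by loxP sites on both chromosomes. The 3 control libraries carry the genotype label p57 flox/flox. The 3 p57 KO libraries carry the label p57 flox/flox-Cre, with Cre delivered by an adenovirus, and the comparison asks how RNA differed 2 days after infection. Every library thus came from cells with floxed alleles. The sources used here do not say whether the controls were infected with an empty virus, nor whether feeder cells remained in the culture. The age of the mice is given as 3 days in the growth protocol and as 10 days in the design text, and the strain also differs between labels, BDF1 in one and C57BL/6 with 129 in the other.

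Cholesterol synthesis starts from acetyl-CoA, passes through mevalonate and isoprenoid units to squalene, and ends with a series of steps on the sterol ring. Its enzymes and many fatty acid enzymes are switched on by the SREBP transcription factors, which stay in the endoplasmic reticulum with the escort protein SCAP for as long as INSIG proteins hold them there, and are released when membrane sterol is low. In the testis, sterols serve as membrane lipid of germ cells and, in Leydig cells, as the source of androgens.

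The DNA just before the start of 4 of the genes is shown to set the SREBP pathway beside the measurements: Hmgcs1 as the only matched gene with a sterol regulatory element core, Insig1 as the feedback gene, Dhcr7 as the gene with the deepest fall and Srebf2 as a gene of the transcription factor itself. The sequences are from RefSeq (GRCm38.p6, the assembly of mm10), run 5′ to 3′ on the plus strand, and stop before the first annotated exon base. Capitals mark the sterol element TCACNCCAC, the NF-Y box CCAAT, the GC box GGGCGG and the E-box CACGTG, on either strand. They lie at chr13:119690101-119690350 (Hmgcs1), chr5:28071162-28071362 (Insig1), chr7:143822917-143823144 (Dhcr7) and chr15:82147019-82147180 (Srebf2).
Hmgcs1: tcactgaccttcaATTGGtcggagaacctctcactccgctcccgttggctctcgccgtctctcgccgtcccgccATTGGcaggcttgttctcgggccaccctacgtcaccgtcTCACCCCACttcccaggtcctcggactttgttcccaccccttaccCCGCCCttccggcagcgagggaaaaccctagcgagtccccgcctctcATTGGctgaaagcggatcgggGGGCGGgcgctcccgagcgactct
Insig1: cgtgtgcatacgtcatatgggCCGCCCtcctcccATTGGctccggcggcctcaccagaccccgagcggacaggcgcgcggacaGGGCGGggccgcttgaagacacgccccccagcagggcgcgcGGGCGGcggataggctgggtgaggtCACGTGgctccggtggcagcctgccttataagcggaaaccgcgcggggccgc
Dhcr7: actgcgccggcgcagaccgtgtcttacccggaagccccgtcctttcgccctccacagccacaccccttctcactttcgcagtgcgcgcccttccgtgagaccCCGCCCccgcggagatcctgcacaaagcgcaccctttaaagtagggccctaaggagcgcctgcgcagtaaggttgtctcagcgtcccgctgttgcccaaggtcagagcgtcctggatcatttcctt
Srebf2: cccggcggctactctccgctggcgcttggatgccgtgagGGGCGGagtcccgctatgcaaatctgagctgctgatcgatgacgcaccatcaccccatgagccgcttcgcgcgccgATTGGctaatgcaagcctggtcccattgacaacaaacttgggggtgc

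Of the 30 genes, 24 were matched to a promoter in the RefSeq table, with 32 promoters among them, each from 250 bases before to 50 after a start. The sterol element core TCACCCCAC was found in 1 of the 32, that of Hmgcs1, and in 0.551% of all 32851 promoters in the table. The relaxed form TCACNCCAC was in the same 1 promoter, against 1.24% of all. A CCAAT box was present in 65.6% of the 32 promoters against 37.4% of all, a GC box in 75% against 35.7%, and an E-box in 18.8% against 7.15%. These are matches of letters only. Sterol elements of other spelling, or outside these windows, were not searched, so a gene without a match may still have one. RefSeq gives Dhcr7 3 promoters: the one shown is the first, with 1 GC box, the second holds 1 E-box, and the third holds 2 CCAAT boxes and 3 GC boxes. The windows of the other two begin within annotated exons and are not printed.

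The 30 genes did not move together. In p57 KO 4 rose and 7 fell, 11 of 30 or 36.7%, where 23.3% of all genes tested were called. A gene was called, and is said to have risen or fallen, at a Benjamini-Hochberg adjusted p under 0.05 in edgeR's quasi-likelihood test, which gave every adjusted p below. The 4 that rose are 13.3% of the genes, against a background of 11.6%, and the 7 that fell are 23.3%, also against 11.6%. Well expressed genes are called more often: of the 27 members with at least 10 CPM on average 2 rose and 7 fell, where 10.3% of all tested genes at that level rose and 16.9% fell. Changes were small. Log2 fold changes of p57 KO against control ran from -0.40 (Dhcr7) to 0.65 (Tm7sf2), with a median of 0.025, against -0.0019 for all genes tested. Libraries of the groups did not overlap for 13 of the 30, with 5 higher and 8 lower in p57 KO, where 19.5% of all genes tested were higher without overlap and 19.7% lower.

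**Figure D1:**
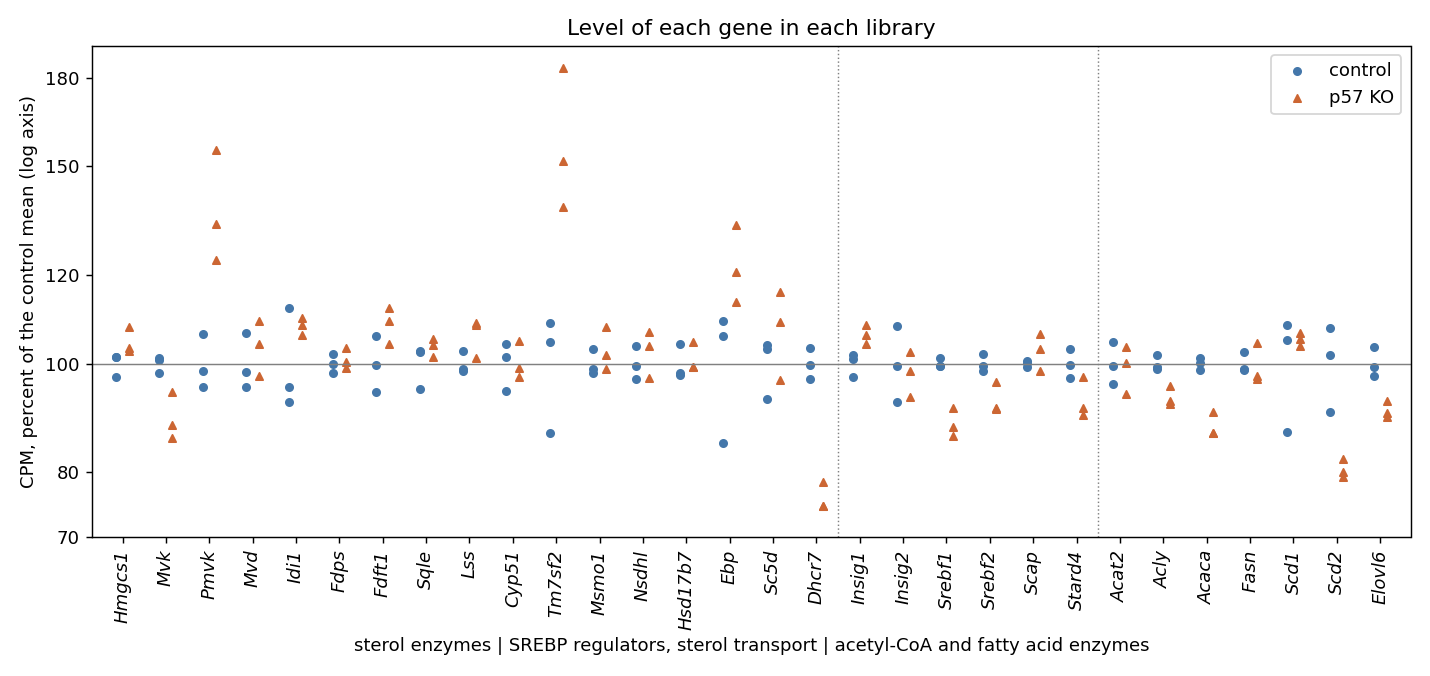
Level of each of the 30 genes in each library, as a percentage of that gene's mean CPM in the control libraries (log axis); circles are the 3 control and triangles the 3 p57 KO libraries, and dotted lines part the roles. Dhcr7 and Scd2 stand lowest in p57 KO, at means of 75.9% and 80.5% of control, and Tm7sf2 and Pmvk highest, at 158% and 137%.

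The libraries held 15662833 to 17893671 counts. Cdkn1c itself was at 20.9, 21.4 and 19.9 CPM in the control libraries and at 8.71, 9.44 and 8.51 CPM in p57 KO (log2 fold change -1.22, SE 0.09, adjusted p = 4.07e-09), so that the groups parted in the direction of their labels. The p57 KO mean was 42.9% of control, so this RNA was reduced and not absent. All 10 markers of germline stem cells were present. Their summed level was 4087 to 4149 CPM in control and 3496 to 3691 CPM in p57 KO. Of the 10, 7 fell (70%, against 11.6% of all genes tested). All 20 markers of fibroblasts and feeder cells were higher in p57 KO, 6 of them past the test in edgeR and 18 in DESeq2 and in limma-voom, with a sum of 955 to 1235 CPM in control and 1522.5 to 3068 CPM in p57 KO, highest in replicate 3. Of all genes tested 11.6% rose in edgeR, 9.47% in DESeq2 and 12.1% in limma-voom. The number of these 20 markers called in edgeR was between 2, without control replicate 3, and 15, without replicate 1 of p57 KO. The 8 macrophage markers summed to 13.6 to 14.96 CPM in control and 19.1 to 23.3 CPM in p57 KO. Most of this was Cd68, at means of 12.4 and 16.4 CPM. Of the 4 tested, Cd68, Cd14 and Lyz2 rose and Fcgr3 was not called. Cd14 had 4 to 9 counts in control and 14 to 23 in p57 KO, and Lyz2 1 to 10 and 18 to 39. Adgre1, Csf1r, Aif1 and Ptprc were not tested. The 10 Sertoli cell markers summed to 200 to 227 CPM in control and 226 to 346 CPM in p57 KO, most of it Ctsl, and 0 of the 5 tested passed. Of the 8 markers of Leydig cells, the steroid-making cells of the testis, Hsd3b1 and Hsd3b6 had no counts, and the sum was 3.00 to 3.94 CPM in control and 3.25 to 3.35 CPM in p57 KO, nearly all of it Star. In bulk RNA, fewer cells of a type and less RNA per cell cannot be told apart.

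In the control cells the RNA of the 30 genes was present at very unequal levels, with means from 1.62 to 679 CPM. Levels were also scaled to the merged exon length of each gene, which joins all its annotated exons. The RNA present can be shorter, so the order of genes on this scale depends in part on the annotation. On it Acly, which makes cytosolic acetyl-CoA from citrate, had the highest level of the 30, 129 ± 2.03 CPM per kb (SD, n = 3). Srebf2 with 78.4 ± 1.37, Hmgcs1 with 78.3 ± 1.79 and Insig1 with 76.6 ± 1.82 CPM per kb came next and did not differ beyond their spread. Among the sterol enzymes Fdps with 36.5 ± 0.703 and Fdft1 with 31.3 ± 1.80 CPM per kb followed Hmgcs1. At the low end were Pmvk with 3.07 ± 0.173, Ebp with 1.47 ± 0.194 and Tm7sf2 with 0.369 ± 0.0434 CPM per kb. Insig1 stood far above its relative Insig2, which had 4.22 ± 0.329 CPM per kb, and Scd2 with 65.9 ± 5.72 CPM per kb far above Scd1 with 11.1 ± 1.27.

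Among the enzymes from Hmgcs1 to Fdps, which build the carbon skeleton, Pmvk alone was called. Hmgcs1, whose enzyme makes HMG-CoA, was at 350, 364 and 364 CPM in control and at 388, 371 and 369 CPM in p57 KO. The groups did not overlap, but the log2 fold change of 0.064 (SE 0.028) had an adjusted p of 0.109. Mvk, mevalonate kinase, was at 16.3, 16.8 and 16.8 CPM in control and at 14.3, 14.7 and 15.7 CPM in p57 KO, also without overlap and not called (-0.16, SE 0.08, adjusted p = 0.176). Pmvk, the kinase that acts next, went the other way: it rose from 5.58, 5.002 and 5.18 CPM to 7.01, 8.16 and 6.50 CPM (a log2 difference of 0.46, SE 0.14, adjusted p = 0.0201). Mvd, Idi1 and Fdps, which turn the product into isoprenoid units and join them, had 0.051, 0.11 and 0.013, and their groups overlapped. Pmvk lost its call when control replicate 2 (adjusted p = 0.0755), control replicate 3 (0.0654) or replicate 2 of p57 KO (0.127) was left out, and Idi1 gained one with control replicate 2 left out (log2 fold change 0.20, adjusted p = 0.0403).

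At the entry to sterols, Fdft1, squalene synthase, was at 140, 132 and 125 CPM in control and at 144, 148 and 138 CPM in p57 KO. It passed the test with a log2 fold change of 0.12 (SE 0.04, adjusted p = 0.0438) although the groups overlapped. It shares 774 exon bases with Ctsb on the other strand, a gene of lysosomes that went from 150 to 252 CPM (log2 fold change 0.75, adjusted p = 0.111). The strand setting of the counting is not given, so the part of such reads in the level of Fdft1 was not tested. Its call was lost when control replicate 2 (adjusted p = 0.134) or 3 (0.237), or replicate 1 (0.0717) or 2 (0.198) of p57 KO was left out. Sqle, the squalene epoxidase that limits this branch, was at 136, 136 and 126 CPM in control and at 140, 138 and 134 CPM in p57 KO, with overlapping groups and a log2 fold change of 0.049 (SE 0.036, adjusted p = 0.348). Lss, which closes the ring, had 0.086 (SE 0.039, adjusted p = 0.114).

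Most of the ring-modifying enzymes could not be told from control. Cyp51, the lanosterol demethylase, was at 103, 113 and 110 CPM in control and at 108, 114 and 106 CPM in p57 KO, a log2 fold change of 0.0048 (SE 0.041). Msmo1 and Nsdhl, which strip the methyl groups, had 0.040 and 0.035, Hsd17b7 had 0.014 and Sc5d, the sterol desaturase, 0.10, each with overlapping groups and an adjusted p between 0.428 (Sc5d) and 0.952 (Cyp51). Ebp, the sterol isomerase, was at 3.70, 3.59 and 2.88 CPM in control and at 3.85, 4.50 and 4.09 CPM in p57 KO, without overlap and not called (0.29, SE 0.17, adjusted p = 0.241). Tm7sf2, a sterol reductase, had the highest fold of the 30, from 1.70, 1.77 and 1.41 CPM to 2.46, 2.98 and 2.24 CPM (log2 fold change 0.65, SE 0.23, adjusted p = 0.0433). It rested on few reads, 22 to 30 counts in control and 39 to 49 in p57 KO, and shares 532 exon bases with Vps51 on its own strand (log2 fold change 0.14, adjusted p = 0.0555). Tm7sf2 kept its call only without p57 KO replicate 3. Its adjusted p was 0.0857, 0.0702 and 0.15 without control replicates 1, 2 and 3, and 0.0503 and 0.177 without p57 KO replicates 1 and 2.

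Dhcr7, the reductase that makes cholesterol in the last step of one branch, was the exception. It was at 100, 97.5 and 104 CPM in control and at 75.1, 78.8 and 75.1 CPM in p57 KO. Every p57 KO library lay below every control library, at 75.9% of the control mean. This is a log2 fold change of -0.40 (SE 0.04, adjusted p = 2.72e-07), from -0.42 to -0.38 in the 6 fits that left out 1 library, each of which called it. Of the 11 called genes it alone passed a test against a fold of 1.2, and it alone kept its call in an edgeR model that also holds the mean log2 CPM of the 20 fibroblast markers, called the fibroblast score here (-0.36, SE 0.08, adjusted p = 0.00404). The score was 3.71 to 4.26 in control and 4.57 to 5.73 in p57 KO, so it is nearly tied to the group. Standard errors were larger in this model, for Insig1 0.055 against 0.029 and for Scd2 0.12 against 0.066. A call can thus be lost in it without a smaller fold, as for Scd2 (-0.36 against -0.31). Of the other 16 sterol enzymes, 15 had a log2 fold change above 0 and Mvk below it, where 7344 of all 14814 genes tested were above 0. Most of the 15 were not called, and Fdps, Cyp51 and Hsd17b7 changed sign in fits without 1 library. Of the 16, 3 rose and 0 fell, against 11.6% of all genes tested in each direction, and the median of all 17 was 0.051. The 3 rises became 0 in DESeq2 and 0 without control replicate 3. The summed level of the 17 was 1347 to 1369 CPM in control and 1353 to 1401 CPM in p57 KO, and the groups overlapped. Without Dhcr7, left out because of its fall, the sum was 1246 to 1271 CPM in control and 1278 to 1322 CPM in p57 KO. The groups then did not overlap, which follows in part from that choice. Of all single genes tested, 19.5% were also higher without overlap.

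**Figure D2:**
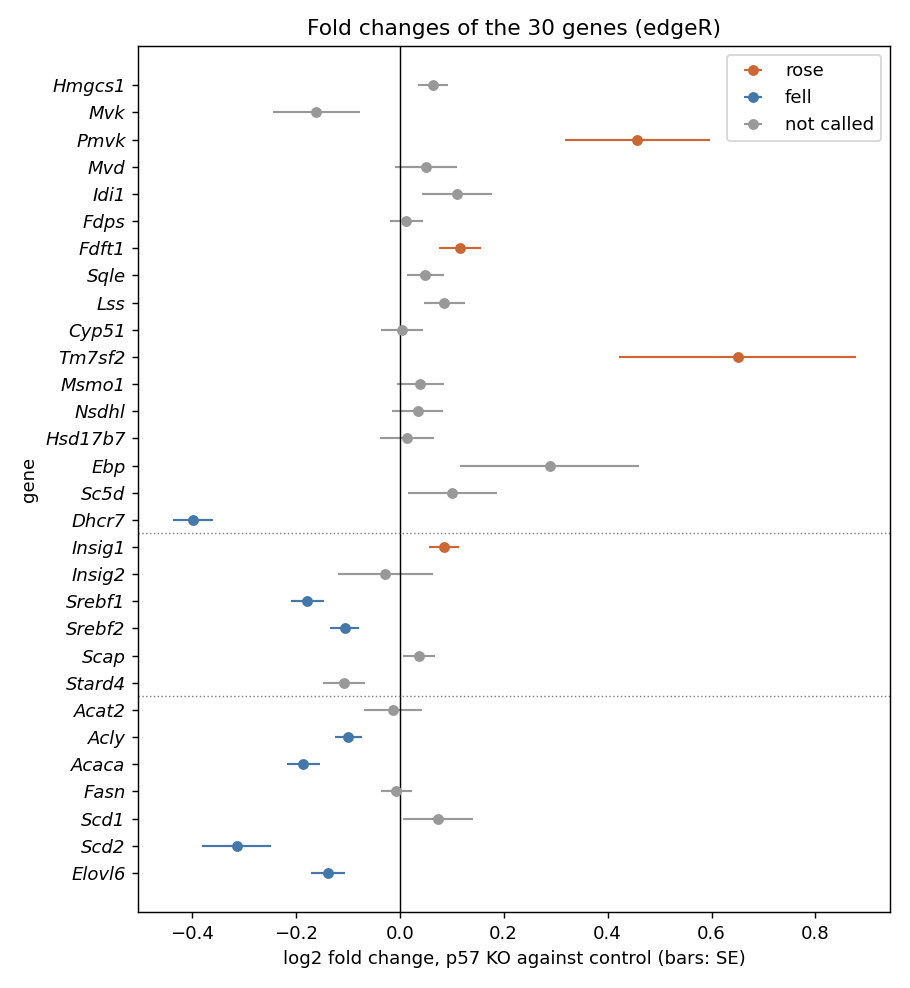
Log2 fold change of each gene (p57 KO over control; bars are standard errors), ordered by role (dotted lines part sterol enzymes, regulators with sterol transport, and acetyl-CoA with fatty acid enzymes). Among sterol enzymes Dhcr7 at -0.40 lies lowest and is the only one that fell, with Mvk at -0.16 not called, while 6 of the other 13 genes fell.

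Dhcr7 lies on the same chromosome as the targeted gene. It spans chr7:143823145-143848410 on the plus strand (mm10), 362 kb from Cdkn1c at chr7:143458339-143461050. Its neighbour Nadsyn1, the gene of an NAD synthetase, is on the other strand with 295 bases between them, in which the Dhcr7 sequence shown above lies, and it fell by a like amount, from 21.2 to 16.1 CPM (log2 fold change -0.40, SE 0.08, adjusted p = 0.00106). Among the other 15 tested genes within 500 kb of Cdkn1c, a window chosen after the values were seen, 3 fell and 2 rose, where 11.6% of all genes tested were called in each direction. The rest were not called. They include the tested genes nearest to Cdkn1c, Slc22a18 at 13 kb (0.42, SE 0.25) and Phlda2 at 40 kb (0.23, SE 0.22). Both were low, at 1.90 and 1.96 CPM in control. Kcnq1ot1, 162 kb away on the other side, had -0.062 (SE 0.10). Besides Nadsyn1 those that fell were Nap1l4, a nucleosome assembly gene 53 kb away, with -0.38 (SE 0.03, adjusted p = 3.93e-09), and Cars, a cysteine tRNA synthetase gene 96 kb away, with -0.23 (SE 0.05, adjusted p = 0.00114). Between them and Dhcr7, Tnfrsf23 and Osbpl5 rose, with 1.69 and 0.73. Given the fibroblast score, Nap1l4 had -0.44 (adjusted p = 2.88e-07), Cars -0.37 (0.0076) and Nadsyn1 -0.42 (0.172), while Osbpl5 had 0.11 (0.881) and Tnfrsf23 0.01 (0.995). The SE of Nadsyn1 was 0.16 in that model, against 0.08 without the score. Tnfrsf23 lost its call without control replicates 1, 2 and 3 (adjusted p = 0.18, 0.104 and 0.167) and without replicate 2 of p57 KO (0.0807), while the other 4 genes were called in 6 of 6 fits that left out 1 library.

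**Figure D3:**
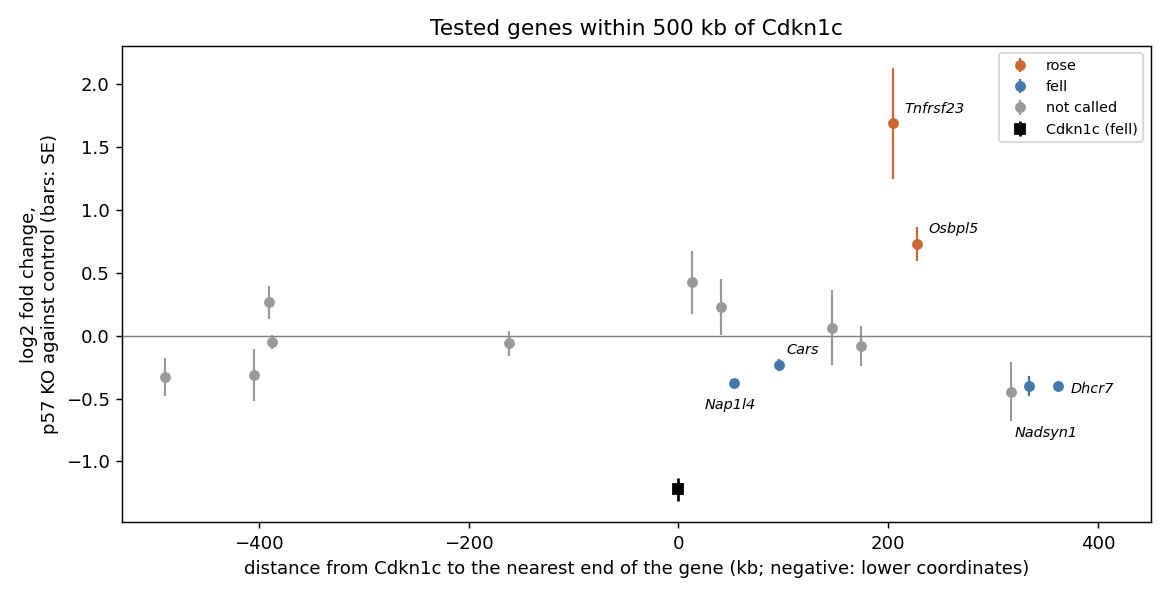
Log2 fold change with its standard error for Cdkn1c (square) and the tested genes within 500 kb of it, by distance in kb to the nearest end of each gene. On one side Nap1l4, Cars, Nadsyn1 and Dhcr7 fell, between -0.40 and -0.23, with Tnfrsf23 and Osbpl5 higher among them. Slc22a18 and Phlda2, nearer to Cdkn1c on that side at 13 and 40 kb, were not called.

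The genes of the SREBP transcription factors were lower. Srebf1, whose product drives mainly fatty acid genes, was at 172, 169 and 169 CPM in control and at 155, 147 and 149 CPM in p57 KO, with no overlap (log2 fold change -0.18, SE 0.03, adjusted p = 0.000305). It shares 109 exon bases with Rai1 on the other strand, which had -0.22 (adjusted p = 0.000137). Srebf2, whose product drives mainly sterol genes, was at 555, 560 and 574 CPM in control and at 543, 514 and 513 CPM in p57 KO, also with no overlap (-0.11, SE 0.03, adjusted p = 0.00872). Srebf1 was called in each of the 6 fits without 1 library, and Srebf2 in 5, missing the threshold (adjusted p = 0.0516) when control replicate 3 was left out. Neither was called beside the fibroblast score: Srebf1 had -0.12 (SE 0.06, adjusted p = 0.367) and Srebf2 -0.032 (SE 0.05, adjusted p = 0.849).

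Insig1, itself an SREBP target that holds the pathway back, went the other way by a small amount. It was at 231, 239 and 241 CPM in control and at 251, 247 and 256 CPM in p57 KO, without overlap (log2 fold change 0.086, SE 0.029, adjusted p = 0.0349). Its call was lost without control replicates 1, 2 and 3 (adjusted p = 0.188, 0.0668 and 0.051) and without replicate 3 of p57 KO (0.135). Insig1 was also not called beside the fibroblast score (0.051, SE 0.055, adjusted p = 0.76). Insig2, which does the same work, was at 15.8, 14.6 and 13.6 CPM in control and at 13.7, 14.4 and 15.01 CPM in p57 KO, with overlapping groups (-0.028, SE 0.091). Scap, the escort protein gene, had 0.037 (SE 0.031, adjusted p = 0.413). Stard4, a carrier of cholesterol in the cytosol, was at 87.9, 90.3 and 93.3 CPM in control and at 88.0, 82.5 and 81.4 CPM in p57 KO. The groups just overlapped, and it missed the threshold (-0.11, SE 0.04, adjusted p = 0.0584), which it passed without p57 KO replicate 1 (adjusted p = 0.0126).

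The enzymes that make cytosolic acetyl-CoA, acetoacetyl-CoA or fatty acids fell in part. Of the 7, 4 fell and 0 rose, where 11.6% of all genes tested fell and 16.9% of those with at least 10 CPM, the level of all 7. Their median log2 fold change was -0.099, against -0.0019 for all genes tested. Their summed level was 1920 to 1983 CPM in control and 1783 to 1868 CPM in p57 KO, without overlap, a mean of 92.5% of control. Acly was at 691, 675 and 671 CPM in control and at 649, 629 and 625 CPM in p57 KO (-0.099, SE 0.026, adjusted p = 0.00884, and 0.0533 without control replicate 1). Acaca, the acetyl-CoA carboxylase that commits carbon to fatty acids, was at 161, 164 and 163 CPM in control and at 147, 141 and 141 CPM in p57 KO (-0.19, SE 0.03, adjusted p = 0.000211). Fasn, fatty acid synthase, did not follow: it was at 510, 511 and 528 CPM in control and at 538, 500 and 504 CPM in p57 KO, with overlapping groups and a log2 fold change of -0.0065 (SE 0.03, adjusted p = 0.905).

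The genes that act on the finished chain were lower in part. Elovl6, which lengthens palmitate, was at 143, 145 and 151 CPM in control and at 136, 131 and 132 CPM in p57 KO (log2 fold change -0.14, SE 0.03, adjusted p = 0.00447). Scd2, a stearoyl-CoA desaturase, was at 326, 387 and 367 CPM in control and at 296, 288 and 285 CPM in p57 KO, the largest fall after Dhcr7 among the 30 (-0.31, SE 0.07, adjusted p = 0.0218). No p57 KO library reached the lowest control library, replicate 1. The control libraries of Scd2 were widely spread, and it lost its call without control replicate 3 (adjusted p = 0.0924) and without each p57 KO replicate, 1 to 3 (0.0714, 0.0636 and 0.102), at log2 fold changes from -0.38 to -0.26 over the 6 fits. Its paralog Scd1 was at 47.3, 57.1 and 58.9 CPM in control and at 58.0, 56.4 and 57.3 CPM in p57 KO, with overlapping groups (0.073, SE 0.068, adjusted p = 0.483). These paralogs share sequence, as does Acat2, a thiolase that makes acetoacetyl-CoA (-0.013, SE 0.056), with its near copy Acat3, and how reads that match several places were counted is not given. None of the 4 enzymes that fell was called beside the fibroblast score. Scd2 had -0.36 (SE 0.12, adjusted p = 0.239) and Acaca -0.15 (SE 0.06, adjusted p = 0.246). Elovl6 had -0.098 (SE 0.064, adjusted p = 0.536) and Acly -0.043 (SE 0.046, adjusted p = 0.758).

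**Figure D4:**
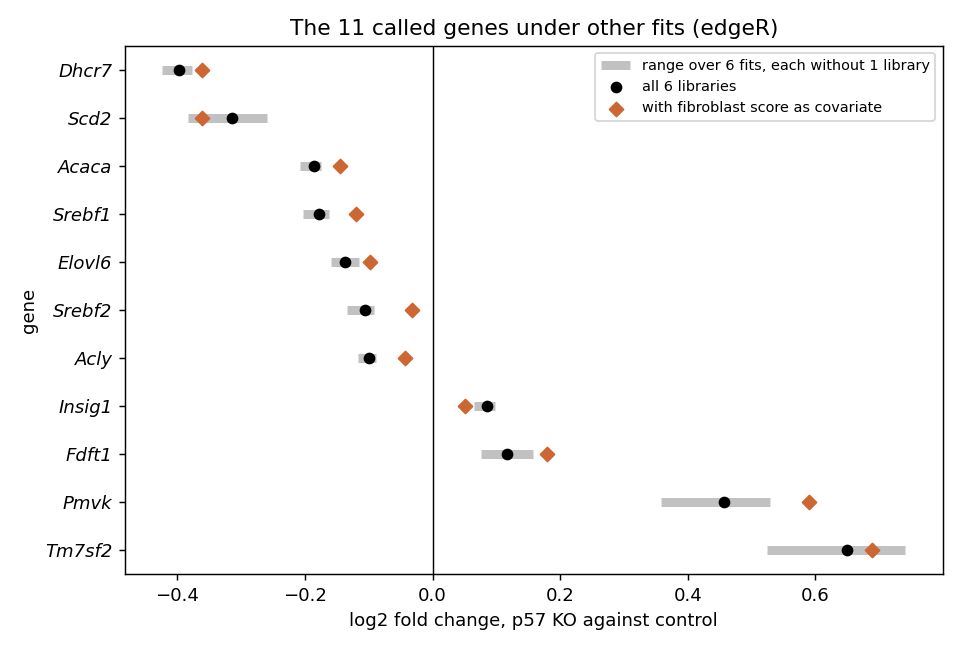
Log2 fold change of the 11 called genes with all 6 libraries (circles), its range over the 6 fits without 1 library (bars), and its value with the fibroblast score in the model (diamonds). All keep their sign, Dhcr7 stays near -0.40, and Srebf2 and Acly move closest to 0, at -0.032 and -0.043.

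Among 76 other genes of these pathways, 9 rose and 15 fell. That is 11.8% and 19.7% of them, against 11.6% of all genes tested in each direction. Of tested genes with at least 10 CPM on average, the level of most of these genes, 10.3% rose and 16.9% fell. Both shares of the 76 were thus near the background at that level. One list held LXR, the sterol-sensing nuclear receptor, with its partners and targets: of 8 genes 3 fell (37.5%, against 11.6% of all genes tested) and 0 rose, with a median log2 fold change of -0.031. Abca1, the pump that exports cholesterol, was at 170, 173 and 187 CPM in control and at 126, 109 and 115 CPM in p57 KO (-0.60, SE 0.05, adjusted p = 2.65e-05). Beside the fibroblast score it had -0.46 (adjusted p = 6.67e-05). Mylip, which marks lipoprotein receptors for degradation, was at 37.9, 40.0 and 41.5 CPM in control and at 30.7, 28.9 and 28.2 CPM in p57 KO (-0.44, SE 0.06, adjusted p = 1.74e-05). Abcg1, another sterol exporter, was at 36.6, 42.2 and 44.4 CPM and at 34.1, 31.7 and 26.2 CPM (-0.42, SE 0.11, adjusted p = 0.022). Groups did not overlap for any of the 3, and Abca1 and Mylip were called in each of the 6 fits without 1 library. Abcg1 lost its call without control replicates 2 and 3 (adjusted p = 0.0844 and 0.0656) and without replicate 2 of p57 KO (0.0701). The model with the fibroblast score gave Mylip -0.35 (SE 0.12, adjusted p = 0.0985) and Abcg1 -0.17 (SE 0.13, adjusted p = 0.63).

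Of 22 genes of SREBP processing, degradation and sterol handling, 1 rose and 5 fell, with a median of -0.031. The 27.3% called are near the 23.3% of all genes tested. Npc1, which lets cholesterol leave lysosomes, had -0.17 (adjusted p = 0.00277). The ubiquitin ligase genes Syvn1 and Rnf145 had -0.12 and -0.11. The subunits of NF-Y, the factor that binds the CCAAT box, parted: Nfya fell by 0.11 and Nfyb rose by 0.20 on the log2 scale. Npc1 and Nfyb were called in each fit without 1 library. Leaving out control replicate 3 ended the call of Syvn1 (adjusted p = 0.138), and leaving out replicate 2 of p57 KO those of Syvn1 (0.0587) and Nfya (0.0536). The calls of Nfya (0.104) and Rnf145 (0.144) were lost without control replicate 1, and that of Rnf145 also without control replicate 2 (0.0845) and replicate 3 of p57 KO (0.148). Of 16 other sterol and isoprenoid genes 1 rose and 2 fell, 18.8% of them and below the 23.3% of all genes tested. Cyb5r3, a reductase that passes electrons to the ring-modifying enzymes, rose from 155, 157 and 168 CPM to 189, 199 and 205 CPM (0.30, SE 0.04, adjusted p = 5.49e-06). Tmem97 and Fntb fell, with -0.15 and -0.22. The adjusted p of Fntb was 0.0682 without control replicate 3, and 0.0518 and 0.0656 without replicates 1 and 2 of p57 KO.

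Other genes of fatty acid and lipid metabolism went both ways. Of 30, 7 rose (23.3%) and 5 fell (16.7%), against 11.6% of all genes tested in each direction, with a median of -0.021. Of tested genes with at least 10 CPM on average, the level of most of the 30, 10.3% rose and 16.9% fell. Those that fell were Dgat2, which makes triglyceride, with -0.37 (adjusted p = 4.24e-05), Elovl5 with -0.19, Acsl3 with -0.17, Tecr with -0.17 and Mlxip with -0.12. Acacb, the carboxylase of mitochondria that restrains fatty acid burning, rose from 63.6, 67.4 and 62.3 CPM to 80.1, 76.8 and 74.7 CPM (0.26, SE 0.04, adjusted p = 0.000196), in contrast to the lower values of its cytosolic counterpart Acaca. Slc25a1, the citrate carrier upstream of Acly, rose by 0.14 on the log2 scale. Mlxipl, the carbohydrate-responsive factor ChREBP, had 0.27 (adjusted p = 0.00852, and 0.0742 without control replicate 1). Mlxip was not called without control replicate 1 (0.054), control replicate 3 (0.108) or replicate 2 of p57 KO (adjusted p = 0.0678). Of the 24 called genes of these lists 3 were also called beside the fibroblast score: Abca1, Cyb5r3 with 0.22 (adjusted p = 0.0433) and Acacb with 0.30 (0.0365).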

How the data were processed

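The authors deposited raw counts per gene, 1 column per library, with no normalization. Per the submitters' processing notes the tools were bcl2fastq 2.20, cutadapt 3.4, HISAT2 2.2.1 and HTSeq 2.0.2 on mm10. The sources used here name neither the annotation nor the strand setting. From these counts, low genes were removed with filterByExpr, libraries were scaled by TMM, and p57 KO was tested against control with edgeR 4.0.16 (limma 3.58.1, R 4.3.3; quasi-likelihood F-test, robust, group as the only term, Benjamini-Hochberg over 14814 genes, called under 0.05). CPM uses the TMM library sizes, and SE is the log2 fold change over the root of F. The test was checked on simulated data. Positions and exon lengths are from GENCODE M21 (mm10). All 30 genes were named by rule, with the called genes of 4 pathway lists, at most 6 each by smallest p; genes beyond that, and the neighbours of Cdkn1c, were chosen after their values were seen. The members and lists were chosen with earlier results of these data known. With 3 libraries against 3 an exact two-sided permutation test cannot go below 0.1. The labels do not say whether replicates were separate cultures, so the spread behind each p-value is that of these libraries and may be technical. The common biological coefficient of variation was 4.35%. A gene of these lists is counted but not reported here by name.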

Additional observations from a re-analysis of the deposited data

How the results depend on the processing

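With RLE size factors, no filter, a filter of 1 CPM in 3 libraries, or the replicate number as a block, the 11 called genes all kept direction and call; DESeq2 1.42.0 and limma-voom kept the 7 falls. Over all genes 3450 were called, 469 against a fold of 1.2 and 381 with the fibroblast score. The 4 rises became 0 in DESeq2, 2 in limma-voom, 0 against a fold of 1.2 and 0 with the fibroblast score, where 4, 6, 2 and 4 members were higher at an unadjusted p under 0.05 (6 in the edgeR test itself), and 0 to 3 without 1 library (0 without control replicate 3, where 5 were higher unadjusted). The members higher at an unadjusted p were not always the 4 that rose: with the fibroblast score Insig1 had 0.051 (SE 0.055). The 7 falls became 1 against a fold of 1.2 and 1 with the fibroblast score, and 5 to 7 without 1 library. The 24 calls of other pathway genes became 15 in DESeq2, 2 against a fold of 1.2, 3 with the fibroblast score and 15 to 26 without 1 library. With the fibroblast score 6 uncalled genes changed sign: Cyp51 (-0.026), Msmo1 (-0.030), Hsd17b7 (-0.037), Sc5d (-0.094), Acat2 (0.052) and Fasn (0.088). Without 1 library, 7 uncalled genes changed sign, in ranges of -0.0068 to 0.026 (Fdps), -0.037 to 0.033 (Cyp51), -0.013 to 0.043 (Hsd17b7), -0.082 to 0.029 (Insig2), -0.046 to 0.025 (Acat2), -0.042 to 0.0097 (Fasn) and -0.020 to 0.13 (Scd1). The cause was not tested. The replicate numbers were not shown to pair the libraries: deviations of same-numbered libraries correlated at 0.36, 0.064 and -0.18, and the replicate block called 3706 genes, with 4 members higher and 7 lower. Depth limits Tm7sf2 most, at 22 to 49 counts per library.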
